A study of Mus musculus with 8 samples.

Results

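The RNA levels of 10 mouse genes of redox defence and iron storage were followed in all 4 groups of an RNA sequencing study of CT26, a mouse colorectal carcinoma cell line. The genes were taken by symbol: Gclc (ENSMUSG00000032350), Gclm (ENSMUSG00000028124), Gsr (ENSMUSG00000031584), Txnrd1 (ENSMUSG00000020250), Srxn1 (ENSMUSG00000032802), Prdx1 (ENSMUSG00000028691), Hmox1 (ENSMUSG00000005413), Osgin1 (ENSMUSG00000074063), Fth1 (ENSMUSG00000024661) and Ftl1 (ENSMUSG00000050708). Each matched 1 Ensembl identifier among the 56953 of the count table. Libraries labelled mLJZD tumour came from transplanted CT26 tumours given mLJZD, an abbreviation the labels do not expand, and saline tumours were transplanted CT26 tumours given normal saline. The mLJZD serum cultures were CT26 cells kept for 48 hours with 10% serum containing mLJZD, and the control serum cultures were CT26 cells kept as long with 10% control serum. CT26 cells were grown in RPMI-1640 medium with 10% fetal bovine serum, per the labels. Each group has 2 libraries, 8 in all. The title of the series names nobiletin, a citrus flavone, while the library labels name only mLJZD. All 4 groups share 1 cell line, the tumours also hold cells of the host, and whether the libraries of a group are separate animals or cultures is not given in the labels, so each p measures the spread between libraries and nothing more.

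NRF2, encoded by Nfe2l2, is a transcription factor that KEAP1 holds in the cytoplasm and hands to the proteasome until oxidants or electrophiles modify KEAP1. Freed NRF2 pairs with small MAF proteins at antioxidant response elements and raises enzymes that make glutathione, recycle thioredoxin, reduce peroxides and break down haem, while BACH1 represses many of the same genes until haem removes it. Ferritin, built of heavy (Fth1) and light (Ftl1) chains, stores the iron that haem breakdown releases, and iron regulatory proteins block the translation of its messages at a stem-loop near their 5′ end.

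Promoter sequences of the genes were searched for the core of the antioxidant response element, TGACNNNGC, on both strands. RefSeq windows of 300 bases, from 250 before to 50 after a gene start on GRCm38.p6, were at hand for Gclm, Txnrd1, Srxn1, Osgin1, Prdx1, Fth1 and Ftl1. These 7 genes had 10 windows, of which 4, in 4 genes, held the motif, as did 12.4% of the 32851 windows of all genes. Forms of the element with other letters were not searched, so these windows may hold more of them, also where no match is shown. The 4 matches are shown because they are all that this search found. Each is given on the + strand with 10 bases on either side. The motif is in capitals, read there as its reverse complement GCNNNGTCA.
Gclm, chr3:122245413-122245441, motif at -134 from the start: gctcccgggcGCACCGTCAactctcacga
Txnrd1, chr10:82859104-82859132, motif at -92: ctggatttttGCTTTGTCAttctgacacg
Srxn1, chr2:152105542-152105570, motif at 29: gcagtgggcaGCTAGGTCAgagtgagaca
Prdx1, chr4:116685456-116685484, motif at -133: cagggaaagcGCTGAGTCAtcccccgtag
The Prdx1 match overlaps TGAGTCA, the motif of the AP-1 factors, which was found in 3 of the 10 windows (Osgin1, Prdx1 and Srxn1) and in 5.2% of all windows. A match describes these letters only.

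The iron responsive elements of the ferritin messages are shown because they are the sequence the 2 ferritin genes share. Both were read from the 5′ UTR of GENCODE M21 transcripts on GRCm38, with the CAGTGN loop in capitals.
Fth1, chr19:9982731-9982758, + strand: tttcctgcttcaaCAGTGCttgaacgga
Ftl1, chr7:45459781-45459808, - strand: tgtcttgcttcaaCAGTGTttgaacgga
They carry the same base at 25 of 28 positions.

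Library totals were 18324302 and 16594912 counts in mLJZD tumours, 19692863 and 19793632 in saline tumours, 20439449 and 29363861 in mLJZD serum cultures, and 23426845 and 22196014 in control serum cultures. The smallest count of any of the 10 genes in a library was 73, for Osgin1. Tumours lay apart from cultures on the first principal component of log2 CPM (counts scaled to the library total), with 89.4% of the variance. In the cultures the fold changes of protein-coding genes followed transcript length: the median log2 fold change was -0.76 for genes with a longest transcript under 1000 bases and 1.00 for those of 8000 bases or more. In the tumours the same medians were 0.09 and -0.08. Culture results below are therefore given as tested and with this trend in length and GC content removed, once with the longest transcript and once with the shortest principal coding transcript of each gene, a choice added after seeing the data. Both lengths are the same for Hmox1, Gclc, Srxn1, Gsr and Ftl1. They are 5589 and 1002 bases for Gclm, 3622 and 2297 for Txnrd1, 2302 and 2005 for Osgin1, 2294 and 877 for Prdx1, and 2062 and 929 for Fth1, whose longest transcript retains an intron.

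**Figure D1:**
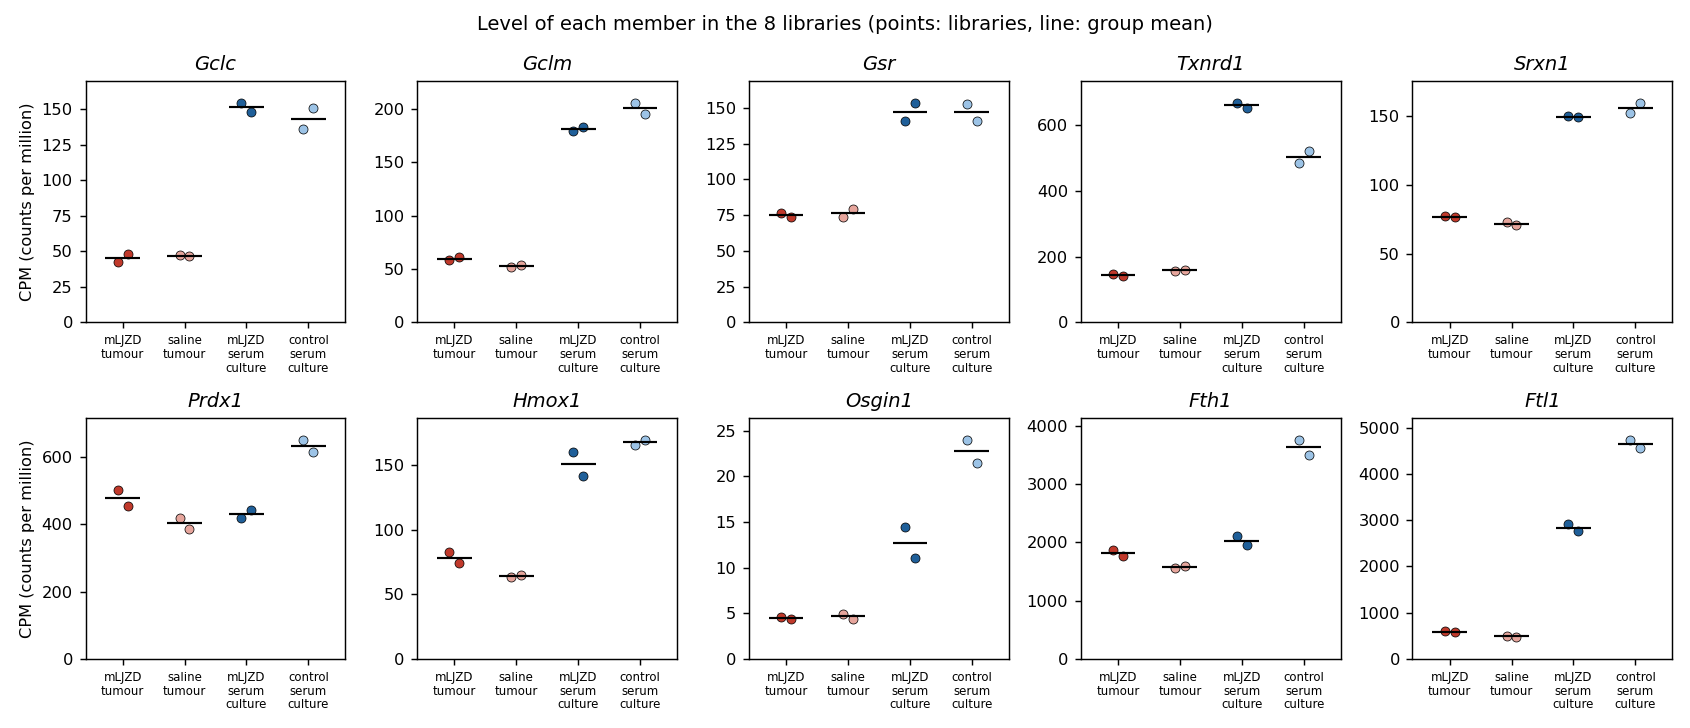
CPM of each gene (vertical axis, from 0) in the 8 libraries, with points for libraries and a line for the group mean, in mLJZD tumours, saline tumours, mLJZD serum cultures and control serum cultures. Fth1, Ftl1, Prdx1 and Osgin1 stand lower in mLJZD serum cultures than in control serum cultures, and for all 10 genes the 4 tumour libraries lie lower than the control serum cultures.

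In tumours, 5 of the 10 genes rose under mLJZD: Hmox1, Prdx1, Gclm, Fth1 and Ftl1. Their folds ran from 1.15 to 1.25. By edgeR 0 of the 10 fell, 0 were lower at an unadjusted p under 0.05, and DESeq2 called 0 lower. Of all 15417 genes tested, 15.4% were called higher and 16% lower at an edgeR quasi-likelihood adjusted p under 0.05. The groups did not overlap in CPM for 7 of the 10 genes, against 64.5% of all genes. The median log2 fold change was 0.17 over the 10 genes and 0.00 over all genes.

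Glutamate-cysteine ligase makes the first step of glutathione synthesis, with Gclc as its catalytic and Gclm as its modifier subunit. Gclm had 58.1 and 61.0 CPM in mLJZD tumours, against 51.8 and 53.9 CPM in saline tumours. Both mLJZD libraries were above both saline libraries, a difference of 0.20 on the log2 scale (SE 0.058, edgeR adjusted p = 0.0123). Gclc had 42.7 and 47.8 CPM in mLJZD tumours, against 47.1 and 46.7 CPM in saline tumours. The groups overlapped, and its log2 fold change of -0.02 (SE 0.067) did not pass (edgeR adjusted p = 0.858).

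Gsr, the reductase that restores oxidised glutathione with NADPH, had 76.6 and 73.4 CPM in mLJZD tumours, against 73.7 and 79.3 CPM in saline tumours. These groups overlapped too (log2 0.00, SE 0.055, edgeR adjusted p = 0.968). Txnrd1, the cytosolic thioredoxin reductase, had 147 and 139.6 CPM in mLJZD tumours, against 156 and 159 CPM in saline tumours. The mLJZD libraries were the lower ones without passing the test (log2 -0.11, SE 0.057, edgeR adjusted p = 0.173).

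Srxn1 encodes sulfiredoxin, which repairs over-oxidised peroxiredoxins. It had 77.3 and 76.3 CPM in mLJZD tumours, against 72.7 and 70.6 CPM in saline tumours. The groups did not overlap, and the log2 fold change of 0.13 (SE 0.051) missed the threshold (edgeR adjusted p = 0.0537). It did pass after removal of the trend in length and GC (0.0281 with the longest transcripts, 0.0204 with the shortest principal ones). Prdx1, a thioredoxin-dependent peroxidase and a substrate of sulfiredoxin, rose. It had 503 and 455 CPM in mLJZD tumours, against 419.5 and 386 CPM in saline tumours. All mLJZD values lay above all saline values (log2 0.28, SE 0.054, edgeR adjusted p = 0.000634).

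Hmox1, the inducible haem oxygenase that opens haem and frees its iron, had the highest fold of the 10 genes in tumours as tested. Its lead over Ftl1 (log2 0.31, SE 0.043) was smaller than either SE. Without mLJZD tumour replicate 1 the log2 fold change was 0.24 for Hmox1 and 0.28 for Ftl1. Hmox1 had 82.7 and 74.5 CPM in mLJZD tumours, against 63.6 and 64.9 CPM in saline tumours. The mLJZD replicates lay further apart than the saline ones but did not reach them (log2 0.33, SE 0.059, edgeR adjusted p = 0.000374). Osgin1, an oxidative stress induced growth inhibitor, had the fewest counts. It had 4.58 and 4.4 CPM in mLJZD tumours, against 4.98 and 4.4 CPM in saline tumours, and its log2 fold change of -0.03 (SE 0.20) did not pass (edgeR adjusted p = 0.937).

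Both ferritin chains rose in tumours. Fth1, the heavy chain with the ferroxidase activity, had 1863 and 1758 CPM in mLJZD tumours, against 1557 and 1593 CPM in saline tumours (log2 0.23, SE 0.033, edgeR adjusted p = 3.25e-05). Ftl1, the light chain that aids the build-up of the iron core, had 602 and 585 CPM in mLJZD tumours, against 501 and 479 CPM in saline tumours (log2 0.31, SE 0.043, edgeR adjusted p = 2.45e-05). In neither gene did the groups overlap.

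By edgeR all 5 tumour calls ended without mLJZD tumour replicate 1: the 5 log2 fold changes stayed between 0.18 and 0.28 but 0 of the 10 genes were called higher (5 at an unadjusted p under 0.05), with edgeR adjusted p of 0.0686 for Hmox1, 0.0943 for Gclm, 0.144 for Prdx1, 0.0538 for Fth1 and 0.0522 for Ftl1. DESeq2 on the same 3 libraries, added after seeing the data, called 3 of the 10 higher: Ftl1 (adjusted p = 1.09e-05), Fth1 (5.35e-05) and Prdx1 (0.0216), and not Hmox1 (0.348) or Gclm (0.457). The call for Gclm also ended with DESeq2 (adjusted p = 0.147), with no filter on low counts (edgeR adjusted p = 0.0538), with the shortest principal transcripts in the trend (0.0508), without saline tumour replicate 1 (0.177) and without mLJZD tumour replicate 2 (0.117).

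Markers of several cell types moved with the treatment in the same tumours. Of 8 erythroid markers matched, 5 could be tested and all 5 rose, and their summed level was 47.2 and 43.7 CPM in mLJZD tumours, against 22.2 and 18.2 CPM in saline tumours. Epb42 was at 0 in both groups, and Slc4a1 was at 0 in saline tumours. Of 11 neutrophil markers, 8 were tested, 6 rose and 1 fell, with sums of 51.5 and 48.3 CPM in mLJZD tumours, against 41.9 and 40.2 CPM in saline tumours, where Ly6g, Mpo and Elane were at 0. Of 11 macrophage markers, 3 rose and 4 fell, with sums of 1428 and 1369 CPM in mLJZD tumours, against 1598 and 1609 CPM in saline tumours. Macrophages are known to carry much ferritin and haem oxygenase.

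B and plasma cell markers rose in 4 of 7 tested cases of 8, with sums of 379 and 344 CPM in mLJZD tumours, against 47.8 and 49.1 CPM in saline tumours. Skeletal muscle markers fell in 9 of 10 tested cases of 11, with sums of 483 and 477 CPM in mLJZD tumours, against 2715 and 2749.6 CPM in saline tumours. Of 10 epithelial markers 4 were tested and 3 fell, with sums of 183 and 183 CPM in mLJZD tumours, against 299 and 294 CPM in saline tumours. Cdx2 was at 0 in both groups, and Cldn4 in saline tumours. Of 7 fibroblast markers 3 rose and 1 fell, with sums of 3707 and 3626 CPM in mLJZD tumours, against 3282 and 3292 CPM in saline tumours. Of these markers Lum was at 0 in both culture groups. The others had counts in cultured CT26 cells too, so they do not mark host cells alone. Their sums were 2193 and 1857 CPM in mLJZD serum cultures, against 1861 and 1998 CPM in control serum cultures. Of 6 T cell markers 1 fell, and of 2 tested adipocyte markers 1 fell. The 6 endothelial markers summed to 226 and 220.1 CPM in mLJZD tumours, against 220.0 and 219 CPM in saline tumours. The part of these cells in the tumour values of the 10 genes was not tested, and in bulk samples fewer cells of a type and less RNA per cell cannot be told apart.

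In cultures, 6 of the 10 genes fell with mLJZD serum and 1 rose. Fth1, Ftl1, Osgin1 and Prdx1 fell most, by 1.53 to 1.87 times, Hmox1 and Gclm fell by 1.16 and 1.15 times, and Txnrd1 rose 1.26-fold. Of all 13299 genes tested, 28.8% were called higher and 26.6% lower. The groups did not overlap for 8 of the 10 genes, against 77.4% of all genes. With the length and GC trend removed, 2 were called higher and 4 lower by either transcript length, where 18.3% and 18.6% of all genes were called higher and lower with the longest transcripts, and 17.1% and 16.8% with the shortest principal ones. The median log2 fold change was -0.21 over the 10 genes as tested, and -0.05 and -0.10 with the trend of the longest and of the shortest principal transcripts removed, beside -0.01 over all genes as tested. Macrophage markers summed to 8.71 and 9.60 CPM in mLJZD serum cultures, against 11.2 and 8.83 CPM in control serum cultures, and C1qa, C1qb, C1qc, Cd163, Ms4a7 and Fcgr1 were at 0 in both. The 10 epithelial markers summed to 239.7 and 238 CPM in mLJZD serum cultures, against 187 and 174 CPM in control serum cultures. Of these 10, Epcam and Cldn4 were at 0 in both groups, Vil1 in mLJZD serum cultures and Cdh1 in control serum cultures.

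**Figure D2:**
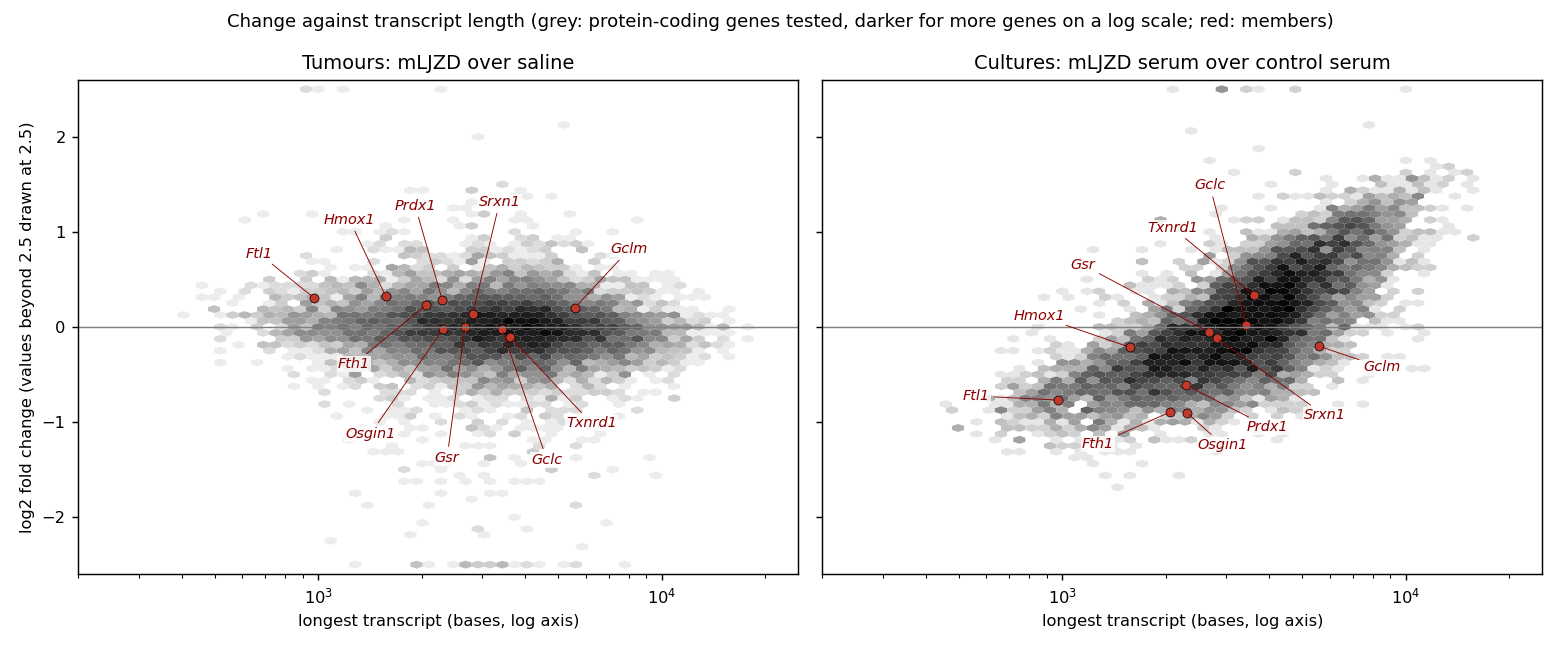
Log2 fold change (vertical axis) against the length of the longest transcript (bases, log axis) of protein-coding genes, in grey with darker cells for more genes, and the 10 genes as red points, for tumours and for cultures. In the cultures short transcripts lie lower, with a median of -0.76 under 1000 bases, and the 10 genes lie within the band of all genes or at its lower edge, while the tumour band is flat.

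Fth1 fell in cultures under every setting tried. It had 2101 and 1959 CPM in mLJZD serum cultures, against 3759 and 3492 CPM in control serum cultures. The groups were far apart (log2 -0.89, SE 0.08, edgeR adjusted p = 5e-07). The fall was -0.65 on the log2 scale (SE 0.067, edgeR adjusted p = 8.32e-06) with the trend of the longest transcripts removed and -0.36 (SE 0.061, edgeR adjusted p = 0.000461) with that of the shortest principal ones.

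Ftl1 had 2912 and 2768 CPM in mLJZD serum cultures, against 4738 and 4563 CPM in control serum cultures. As tested it fell by 0.77 on the log2 scale (SE 0.076, edgeR adjusted p = 1.24e-06). With the trend removed this call ended, at log2 -0.02 (edgeR adjusted p = 0.856) with the longest transcripts and -0.10 (0.21) with the shortest principal ones. The transcript of Ftl1 is 968 bases long by either choice, and its change as tested lay near that of other genes of its length and GC content.

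Prdx1 and Osgin1 fell under each of the 3 treatments of length. Prdx1 had 419 and 442 CPM in mLJZD serum cultures, against 652 and 615 CPM in control serum cultures (log2 -0.61, SE 0.075, edgeR adjusted p = 8.95e-06). Its log2 fold change was -0.58 (edgeR adjusted p = 1.42e-05) and -0.29 (0.00234) with the trend removed. Osgin1 had 14.5 and 11 CPM in mLJZD serum cultures, against 24.0 and 21.4 CPM in control serum cultures. It was the gene with the largest fall as tested (log2 -0.90, SE 0.15, edgeR adjusted p = 0.00014), which was -0.47 (edgeR adjusted p = 0.016) and -0.44 (0.0232) with the trend removed.

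Txnrd1 was the 1 gene to rise in cultures as tested. It had 666 and 651 CPM in mLJZD serum cultures, against 485 and 521 CPM in control serum cultures. Both mLJZD serum libraries lay above both control libraries (log2 0.33, SE 0.073, edgeR adjusted p = 0.00141), and the rise remained with the trend removed (log2 0.22, edgeR adjusted p = 0.0134, and log2 0.45, edgeR adjusted p = 8.44e-05). Its partner in NADPH use, Gsr, had 141 and 153 CPM in mLJZD serum cultures, against 153 and 141 CPM in control serum cultures, which overlap (log2 -0.05, SE 0.078, edgeR adjusted p = 0.593). Per library, Txnrd1 counts over Gsr counts were 4.72 and 4.25 in mLJZD serum cultures, against 3.18 and 3.69 in control serum cultures.

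The direction of Hmox1 and Gclm in cultures turned with the treatment of length. Hmox1 had 159.9 and 142 CPM in mLJZD serum cultures, against 166 and 169.8 CPM in control serum cultures (log2 -0.21, SE 0.078, edgeR adjusted p = 0.0309). With the trend of the longest transcripts removed it was called higher (log2 0.24, edgeR adjusted p = 0.0168), and with the shortest principal ones it was not called (log2 0.13, edgeR adjusted p = 0.157). As tested, the call also ended with library totals only (0.109), without control serum culture replicate 1 (0.0756) or 2 (0.0938) and without mLJZD serum culture replicate 2 (0.308).

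Gclm had 179 and 183 CPM in mLJZD serum cultures, against 205 and 195 CPM in control serum cultures (log2 -0.20, SE 0.071, edgeR adjusted p = 0.0256). It was -0.79 (edgeR adjusted p = 1.59e-06) with the trend of the longest transcripts removed and 0.33 (0.000806) with the shortest principal ones, so the sign followed the transcript assigned to it. As tested, its call ended with library totals only (0.103), without control serum culture replicate 1 (0.219) and without mLJZD serum culture replicate 1 (0.0807). Gclc had 154 and 148 CPM in mLJZD serum cultures, against 136 and 151 CPM in control serum cultures, and did not pass as tested (log2 0.02, SE 0.075, edgeR adjusted p = 0.823) but was called lower with the shortest principal transcripts (log2 -0.25, edgeR adjusted p = 0.012).

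Srxn1 had 149.8 and 149 CPM in mLJZD serum cultures, against 152 and 159 CPM in control serum cultures. The groups did not overlap, but the difference did not pass (log2 -0.12, SE 0.071, edgeR adjusted p = 0.18). With the trend removed it was not called, at log2 0.04 (edgeR adjusted p = 0.647) with the longest transcripts and -0.09 (0.305) with the shortest principal ones. It was called lower with upper-quartile factors (log2 -0.23, edgeR adjusted p = 0.0135), which moved the median of all culture genes by -0.11. It was also called lower in a fit of all 8 libraries (log2 -0.20, edgeR adjusted p = 0.0127).

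**Figure D3:**
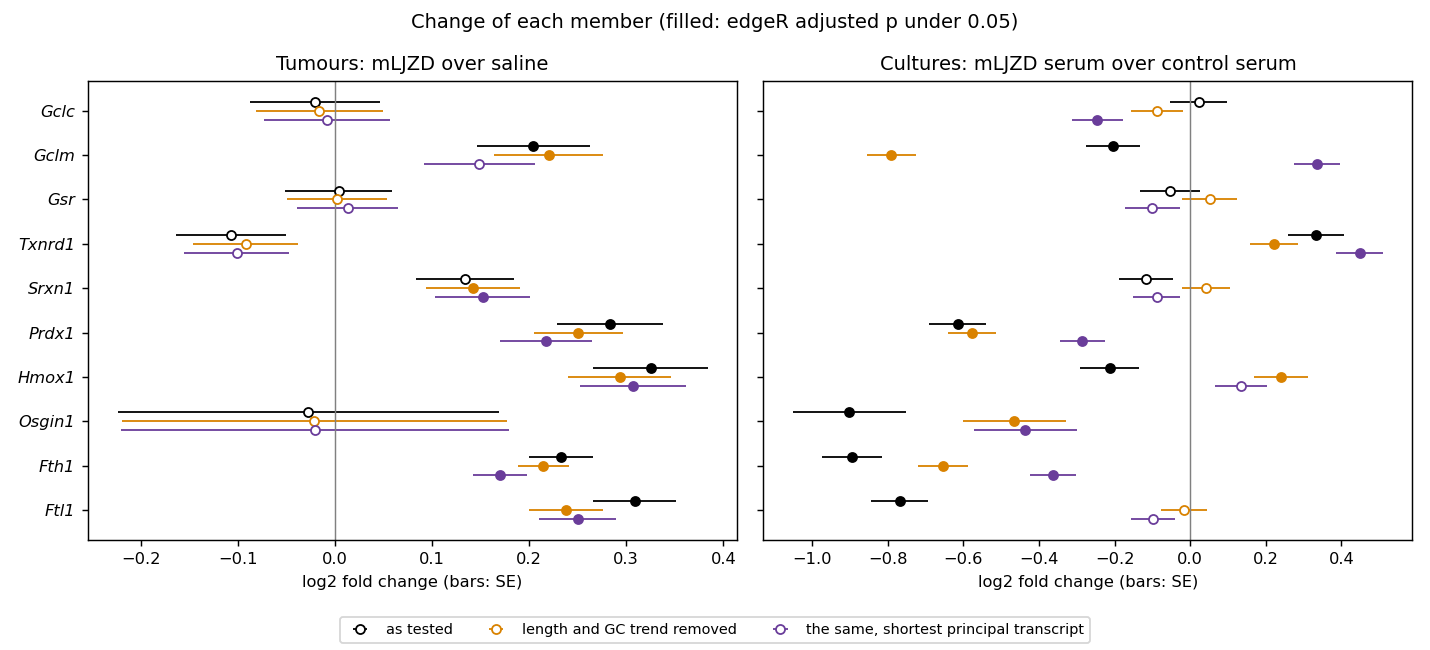
Log2 fold change of each gene with its standard error (bars) in tumours, mLJZD over saline, and in cultures, mLJZD serum over control serum, as tested (black), with the length and GC trend of the longest transcripts removed (orange) and of the shortest principal transcripts removed (purple); filled points passed an edgeR adjusted p of 0.05. The 3 estimates lie close together in tumours, while in cultures those of Gclm, Ftl1, Fth1, Osgin1, Hmox1 and Prdx1 spread apart.

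The tumour effect minus the culture effect was tested in 1 fit of all 8 libraries. It was called positive for 7 of the 10 genes and negative for 1, where 23.8% of 16090 genes were called positive and 20.5% negative. Fth1 and Ftl1 differed most, by 1.21 (SE 0.084, edgeR adjusted p = 9.46e-09) and 1.16 (SE 0.076, edgeR adjusted p = 5.11e-09) on the log2 scale. These differences stayed called, at 0.93 and 0.66 for Fth1 and at 0.37 and 0.47 for Ftl1, with the trend of the longest and of the shortest principal transcripts removed. Prdx1 differed by 0.98 (SE 0.092, edgeR adjusted p = 2.32e-07) and also stayed called, at 0.94 and 0.70. Txnrd1 differed the other way, by -0.35 (SE 0.08, edgeR adjusted p = 0.00156), and stayed called at -0.27 and -0.49.

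The differences for Hmox1 (0.62, SE 0.11, edgeR adjusted p = 0.00015) and Osgin1 (0.96, SE 0.25, edgeR adjusted p = 0.00407) were not called with the trend of either length removed. For Gclm the difference was 0.49 (SE 0.093, edgeR adjusted p = 0.000345) as tested, 1.03 with the longest and -0.07 with the shortest principal transcripts. Srxn1 differed by 0.34 (SE 0.089, edgeR adjusted p = 0.00525), a call that ended with the longest transcripts (0.225). Gclc (0.04, edgeR adjusted p = 0.824) and Gsr (0.14, edgeR adjusted p = 0.305) did not pass as tested, and Gclc was called with the shortest principal transcripts (0.28, edgeR adjusted p = 0.0403).

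All 10 genes were lower in saline tumours than in control serum cultures, and were called lower under every alternative run for this contrast. Of 15332 genes tested, 35.7% were called lower and 44.9% higher, and the groups did not overlap for 10 of the 10 genes, against 89.5% of all genes. Ftl1 stood furthest apart, with 490.0 ± 16.2 CPM in saline tumours and 4650.2 ± 124 CPM in control serum cultures (SD, n = 2 each), 10.6 times lower (log2 -3.41, SE 0.06, edgeR adjusted p = 1.26e-11). With the length and GC trend of the longest and of the shortest principal transcripts removed it was 6.57 and 6.94 times lower. Osgin1 averaged 4.69 ± 0.411 CPM in saline tumours and 22.7 ± 1.83 CPM in control serum cultures (log2 -2.44, SE 0.14). Prdx1 was nearest, with 403 ± 23.7 CPM in saline tumours and 634 ± 25.6 CPM in control serum cultures (log2 -0.82, SE 0.057, edgeR adjusted p = 2.44e-07).

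Between these lay Gclm with a log2 fold change of -2.08 (-2.66 and -1.59 with the trend removed), Txnrd1 with -1.83, Gclc with -1.77, Hmox1 with -1.55, Fth1 with -1.36, Srxn1 with -1.28 and Gsr with -1.10. The median was -1.66 over the 10 genes, against 0.15 over all genes tested. Saline tumours hold host cells that control serum cultures lack: macrophage markers summed to 1598 and 1609 CPM in saline tumours, against 11.2 and 8.83 CPM in control serum cultures. The material, its cell mixture and its handling cannot be told apart.

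The 10 genes together took 0.346% and 0.327% of the counts of mLJZD tumours, against 0.295% and 0.294% in saline tumours. In mLJZD serum cultures they took 0.690% and 0.661%, against 1.05% and 1.00% in control serum cultures. The 2 ferritins held between 69.8% and 81.2% of the counts of the 10 genes in every library.

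Levels per transcript length, as TPM (transcripts scaled to a common library total) with the shortest principal transcript, placed Fth1, Ftl1 and Prdx1 first, in that order, in both tumour groups. Means were 3670.4, 1155 and 1029 TPM in mLJZD tumours, against 3324, 993 and 901 TPM in saline tumours. In both culture groups Ftl1 came before Fth1 and Prdx1, with means of 6028, 4492 and 1008 TPM in mLJZD serum cultures, against 8045, 6533 and 1210 TPM in control serum cultures. The same genes led in the same order with the longest transcripts, though Prdx1 and Txnrd1 then overlapped in mLJZD serum cultures. Osgin1 was lowest in all 4 groups by either length. Gclm had rank 5 with the shortest principal transcript and rank 9 with the longest one, so its place depends on the transcript. With the shortest principal transcript the neighbours that overlapped were Txnrd1 and Gclm in mLJZD tumours, Gsr and Srxn1 in mLJZD serum cultures, and Srxn1 and Gsr in control serum cultures.

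The light chain to heavy chain ratio of ferritin RNA separated the materials. Ftl1 over Fth1 per transcript length was 0.310 and 0.319 in mLJZD tumours, against 0.309 and 0.288 in saline tumours. It was 1.33 and 1.36 in mLJZD serum cultures, against 1.21 and 1.25 in control serum cultures. All 4 tumour libraries lay under 1 and all 4 culture libraries above it. The longest transcripts kept this split, with 0.688 and 0.709 in mLJZD tumours, 0.686 and 0.640 in saline tumours, 2.95 and 3.01 in mLJZD serum cultures, and 2.69 and 2.78 in control serum cultures. The split between materials is given without a test. Within a material, 2 libraries against 2 cannot pass an exact permutation test, whose smallest two-sided p is 0.333. Named pseudogene copies held at most 2.01% of the counts of Ftl1 and 0.00343% of those of Fth1, and how reads that map to several places were counted is not given here.

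**Figure D4:**
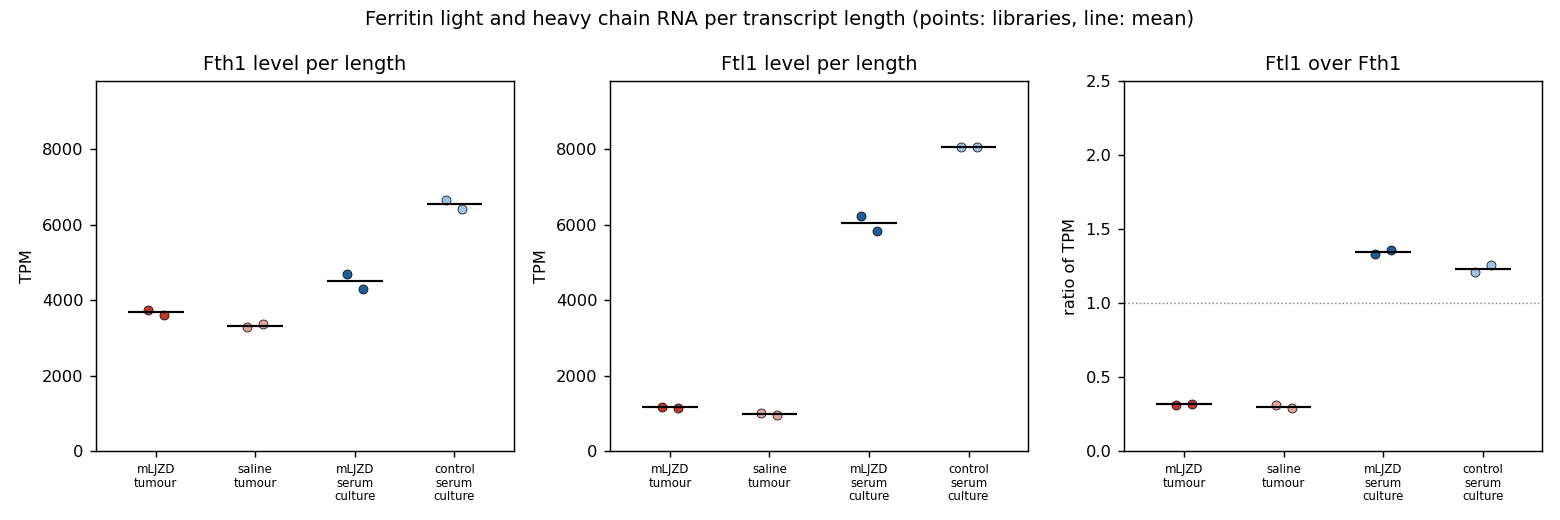
TPM of Fth1 and of Ftl1 per length of the shortest principal transcript, and their ratio (vertical axes, from 0), with points for libraries and lines for group means in mLJZD tumours, saline tumours, mLJZD serum cultures and control serum cultures; the dotted line marks a ratio of 1. The tumour ratios lie between 0.288 and 0.319 and the culture ratios between 1.21 and 1.36.

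Counts of the pathway lists are read beside the 15.4% and 16% of all genes called higher and lower in tumours and the 28.8% and 26.6% in cultures. With the trend removed the culture shares were 18.3% and 18.6% with the longest transcripts, and 17.1% and 16.8% with the shortest principal ones. Of 12 genes of NRF2 and its regulators, 4 rose and 4 fell in tumours (median log2 -0.08), and 3 rose and 3 fell in cultures (median -0.12). With the trend removed 2 or 4 rose and 3 or 4 fell in cultures, by the longest or the shortest principal transcripts (median -0.06 and -0.08). Nfe2l2 itself had 211 and 209 CPM in mLJZD tumours, against 229.5 and 224 CPM in saline tumours, and did not pass (log2 -0.08, edgeR adjusted p = 0.268). In cultures it had 75.1 and 83.9 CPM with mLJZD serum, against 88.7 and 86.3 CPM with control serum, and did not pass as tested (log2 -0.19, edgeR adjusted p = 0.0589). With the trend removed it was not called with the longest transcripts (log2 -0.12, edgeR adjusted p = 0.243) and was called lower with the shortest principal ones (log2 -0.27, edgeR adjusted p = 0.012). The 4 largest tumour changes were those of Bach1, Btrc, a subunit of a ubiquitin ligase that also acts on NRF2, the NRF2 relative Nfe2l1, and Keap1. Keap1 had 76.1 and 72.9 CPM in mLJZD tumours, against 87.0 and 91.0 CPM in saline tumours (log2 -0.22, SE 0.052, edgeR adjusted p = 0.00287). Btrc (log2 0.31) and Nfe2l1 (log2 0.26) rose.

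Bach1, the haem-sensing repressor, moved in opposite directions in the 2 materials. It fell in tumours, with 83.3 and 80.7 CPM in mLJZD tumours, against 103 and 105 CPM in saline tumours (log2 -0.31, SE 0.048, edgeR adjusted p = 7.13e-05). It rose in cultures, with 40.4 and 42.6 CPM with mLJZD serum, against 18.7 and 17.8 CPM with control serum (log2 1.13, SE 0.11, edgeR adjusted p = 7.23e-07). The culture change was 0.54 and 0.43 with the trend of the longest and of the shortest principal transcripts removed, and stayed called. The tumour effect minus the culture effect was -1.35 (edgeR adjusted p = 2.73e-08), and -0.79 and -0.67 with the trend removed. In cultures the ligase subunits Cul3 (log2 0.52) and Rbx1 (log2 -0.52) and the kinase Gsk3b (log2 0.75) made up the other large changes, of which those of Cul3 and Gsk3b ended with the trend removed or turned.

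Of 23 other glutathione, thioredoxin and peroxide genes tested, 7 rose and 3 fell in tumours (median log2 0.11). Both chains of the cystine transporter rose there. Slc3a2, its heavy chain, had 276 and 277 CPM in mLJZD tumours, against 190.3 and 194 CPM in saline tumours (log2 0.56, SE 0.051, edgeR adjusted p = 2.12e-07). Slc7a11, its light chain and a known NRF2 target, had 24.9 and 24.2 CPM in mLJZD tumours, against 18.9 and 17.5 CPM in saline tumours (log2 0.46, SE 0.099, edgeR adjusted p = 0.00154). Gpx8, a peroxidase of the endoplasmic reticulum, rose (log2 0.36), and Ggt1, which splits extracellular glutathione, fell (log2 -1.42). Ggt1 was scarce, with 0.709 and 0.422 CPM in mLJZD tumours, against 1.83 and 1.31 CPM in saline tumours.

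In cultures, 17 of the same 23 genes fell and 1 rose (median log2 -0.53). With the trend removed 14 or 13 fell and 1 rose, by the longest and the shortest principal transcripts (median -0.26 and -0.21). The 1 gene that rose differed each time, so the 3 are named here after their values were seen. As tested it was Slc7a11, with 51.6 and 60.8 CPM in mLJZD serum cultures, against 28.8 and 35.2 CPM in control serum cultures (log2 0.76, edgeR adjusted p = 4.48e-05). With the trend removed Slc7a11 was called lower instead, at log2 -0.27 (edgeR adjusted p = 0.0464) and -0.34 (0.0152). The gene called higher was then the thioredoxin reductase Txnrd3 (log2 0.33) with the longest transcripts and the glutathione synthetase Gss (log2 0.25) with the shortest principal ones. Gpx4, the peroxidase that reduces lipid peroxides, had 195 and 217 CPM in mLJZD serum cultures, against 440.5 and 393 CPM in control serum cultures (log2 -1.07, SE 0.084, edgeR adjusted p = 1.46e-07). That fall was -0.26 and -0.37 with the trend removed and stayed called. Txnip, the thioredoxin-binding protein, fell by about as much with the trend removed as without, at log2 -0.93 as tested and -0.90 and -1.04 with it removed. The cytosolic peroxiredoxin Prdx2 fell as well (log2 -0.80, and -0.44 and -0.42 with the trend removed), and the fall of Gpx1 (log2 -0.90) ended with the trend removed.

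Genes of NADPH supply and other NRF2 targets rose in 1 and fell in 3 of 14 cases in tumours (median log2 -0.09), and rose in 2 and fell in 6 of 12 tested in cultures (median -0.38). With the trend removed 1 rose and 4 or 3 fell in cultures, by the longest or the shortest principal transcripts (median -0.11 and -0.16). Nqo1, a quinone reductase much used as a readout of NRF2, was scarce in every library. By edgeR it fell in tumours, with 0.928 and 1.39 CPM in mLJZD tumours, against 2.79 and 2.98 CPM in saline tumours (log2 -1.29, SE 0.32, edgeR adjusted p = 0.00452). DESeq2 on the same libraries did not call it. The exporter Abcc4 fell in tumours (log2 -0.50) and rose in cultures (log2 0.82, and 0.33 and 0.22 with the trend removed). Abcc1 (log2 0.15) and Taldo1 (log2 -0.15) were the other tumour calls. In cultures the epoxide hydrolase Ephx1 (log2 -0.85) and the transketolase Tkt (log2 -0.62) fell and stayed called with the trend removed, while the rise of Abcc1 (log2 0.61) did not.

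Haem genes fell in 2 of 13 cases in tumours and rose in 0 by edgeR (1 at an unadjusted p under 0.05, 0 by DESeq2; median log2 0.04), and fell in 9 and rose in 1 of 14 in cultures (median -0.46). As tested, the share that fell in tumours is near that of all genes. With the trend removed by either transcript choice, 4 of the 13 fell in tumours and 0 rose. In cultures 7 or 5 fell and 1 or 0 rose with the trend removed, by the longest or the shortest principal transcripts (median -0.26 and -0.17). The haem exporter Flvcr1 (log2 -0.30) and the lysosomal haem transporter Slc48a1 (log2 -0.16) were the 2 tumour calls. In cultures Alad, an early enzyme of haem synthesis, had 72.8 and 60.5 CPM with mLJZD serum, against 119.8 and 117 CPM with control serum (log2 -0.89, SE 0.092, edgeR adjusted p = 1.78e-06). Blvrb, a biliverdin reductase, fell too (log2 -0.84), as did Slc48a1 (log2 -0.70). These 3 stayed called with the trend removed, at log2 -0.40, -0.36 and -0.40 with the longest transcripts and -0.26, -0.21 and -0.50 with the shortest principal ones, and Urod (log2 -0.49) did not.

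Genes of iron uptake, export and regulation rose in 3 and fell in 3 of 17 cases in tumours as tested (median log2 -0.04). These shares were near those of all genes. With the trend removed 5 or 4 rose and 3 fell in tumours, by the longest or the shortest principal transcripts. As tested, genes of this list rose in 7 and fell in 3 of 14 cases in cultures (median 0.14). In cultures 4 or 3 rose and 2 or 1 fell with the trend removed, by the longest or the shortest principal transcripts (median -0.14 and 0.05). Tfrc, the transferrin receptor, is controlled by the same iron regulatory proteins as ferritin, which protect its message where they block that of ferritin. It fell in tumours, with 78.3 and 84.4 CPM in mLJZD tumours, against 123 and 119 CPM in saline tumours (log2 -0.54, SE 0.05, edgeR adjusted p = 2.5e-07). It rose in cultures, with 101 and 105 CPM with mLJZD serum, against 45.4 and 45.5 CPM with control serum (log2 1.12, SE 0.079, edgeR adjusted p = 5.99e-08).

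In each material Tfrc RNA moved against Fth1 RNA. Whether iron regulatory proteins had a part in this was not tested. The culture rise of Tfrc was 0.64 and 0.49 with the trend of the longest and of the shortest principal transcripts removed, and stayed called. The tumour effect minus the culture effect was -1.58 for Tfrc (SE 0.096, edgeR adjusted p = 2.87e-09), and -1.14 and -0.97 with the trend removed. Transferrin itself, Trf, fell in tumours, with 57.9 and 55.6 CPM in mLJZD tumours, against 89.0 and 86.7 CPM in saline tumours (log2 -0.60, SE 0.053, edgeR adjusted p = 1.58e-07).

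The metal transporter Slc39a14 rose (log2 0.39) and Slc11a2, which carries iron out of endosomes, fell (log2 -0.29) in tumours. In cultures Ncoa4, the receptor that delivers ferritin to lysosomes, had 51.8 and 52.7 CPM with mLJZD serum, against 25.1 and 32.7 CPM with control serum (log2 0.80, SE 0.11, edgeR adjusted p = 2.98e-05), and stayed called at 0.39 and 0.48 with the trend removed. The iron regulatory protein gene Ireb2 (log2 0.87) was called with the longest transcripts (0.23) and not with the shortest principal ones (0.11), and the fall of the iron chaperone Pcbp1 (log2 -0.44) ended with either.

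DESeq2 on all tumour libraries did not call 7 of the 18 pathway genes named in tumours: Btrc, Ggt1, Nqo1, Abcc1, Taldo1, Flvcr1 and Slc48a1. Of the 18, 5 were called under every alternative: Abcc4, Slc39a14, Slc3a2, Tfrc and Trf. By edgeR the other 13 were not called without mLJZD tumour replicate 1 (11 of the 18 by DESeq2), and without mLJZD tumour replicate 2 this held for 11. Of the 20 named in cultures, 13 were called under every alternative.

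**Figure D5:**
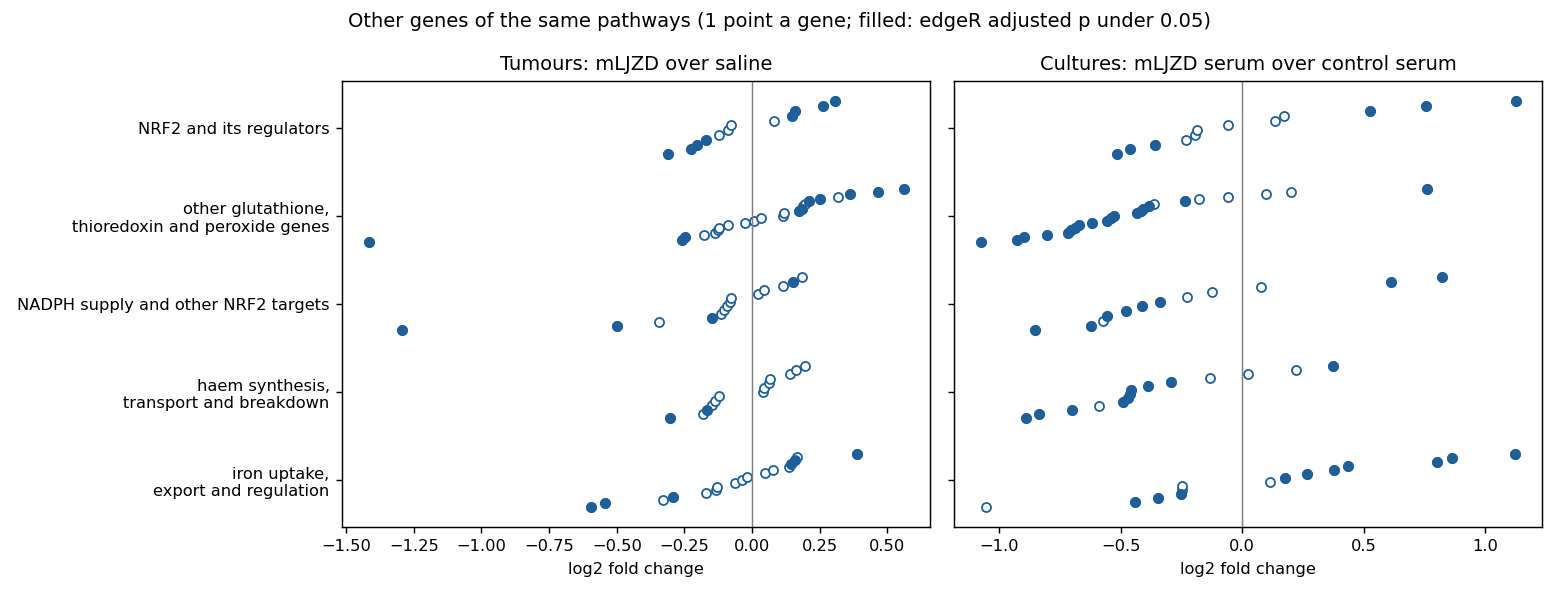
Log2 fold change (horizontal axes) of each tested gene of the 5 pathway lists, 1 point a gene, in tumours (mLJZD over saline) and in cultures (mLJZD serum over control serum); filled points passed an edgeR adjusted p of 0.05. Of 23 other glutathione, thioredoxin and peroxide genes, 3 in tumours and 17 in cultures lie below 0 and passed.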

How the data were processed

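RNA was extracted from tumour tissue or cultured cells with a column kit, and libraries were made with a VAHTS Universal V10 kit, per the labels' protocols. The authors deposited raw counts per gene. Per the submitters' processing notes, Trim Galore, FastQC 0.12.1, HISAT2 2.2.1, SAMtools 1.14, featureCounts 2.0.3 and the build GRCm39 were used. Annotation release, strand setting and handling of multi-mapped reads: not given in the sources here. Overlapping genes (for Gclm and Ftl1) had at most 106 counts in all libraries together.

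Symbols, lengths and GC content were matched by identifier in GENCODE M21, which named 52029 identifiers. edgeR 4.0.16 in R 4.3.3 tested genes by the two-sided quasi-likelihood F test with TMM and filterByExpr, called at a Benjamini-Hochberg adjusted p under 0.05 over all genes tested. The 3 comparisons of group pairs were fitted on 4 libraries each and the interaction on 8. An SE is the log2 fold change over the square root of F. CPM used library totals. The trend in length and GC was a loess fit per library (span 0.5, degree 1), removed by offsets. Alternatives included DESeq2 1.42.0. Gene tests were also run on simulated data. The folds simulated there were larger than those of any of the 10 genes called in tumours. They were also larger than those of Hmox1, Gclm and Txnrd1 in cultures, so calls that small were not covered. The same spread setting was used there for all genes and libraries. The 10 genes and the lists were chosen with earlier results of these data known. Of each pathway list, counts and up to 4 called genes with the largest log2 fold change per comparison are named. Replicates of no group were duplicates: chi-square over degrees of freedom ran from 2.58 to 10.7.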

Additional observations from a re-analysis of the deposited data

Results flagged for a closer look

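The effect of mLJZD in tumours differed from that in cultures for 8 of the 10 genes by the edgeR interaction test, where 23.8% of 16090 genes were called higher and 20.5% lower. Tumour effect minus culture effect was 1.21 for Fth1, 1.16 for Ftl1, 0.98 for Prdx1, 0.96 for Osgin1, 0.62 for Hmox1, 0.49 for Gclm and 0.34 for Srxn1 on the log2 scale. It was -0.35 for Txnrd1. The differences for Fth1, Ftl1, Prdx1 and Txnrd1 were called with the length and GC trend of either transcript choice removed. Those for Hmox1 and Osgin1 were called with neither, and those for Gclm and Srxn1 with only 1 of the 2 choices. Gclc, not called as tested, was called with the shortest principal transcripts (0.28). What separates tumours given mLJZD from cultures given serum with mLJZD (route, dose, time and host cells) cannot be told apart.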

How the results depend on the processing

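Of the counts of genes called, that of the tumours was 4835 and fell to 2881 with DESeq2; without 1 library each it ran from 1087 (without mLJZD tumour replicate 1) to 3536, with 1974 without mLJZD tumour replicate 2, and that of the 10 genes called higher from 0 to 5. DESeq2 without mLJZD tumour replicate 1 called 1456 genes and 3 of the 10 higher, with Gsr at -0.039. That of the cultures was 7365, and 4908 with the length and GC trend removed (4498 with shortest principal transcripts), where 2 of the 10 genes were called higher, and 2 also in the replicate block fit with that trend. In the interaction 4 of the 10 genes were called higher with the trend removed, with or without the block. Without 1 library each the interaction gave 7 higher and 1 lower, and the cultures 1 higher and 4 to 5 lower. Replicate numbers did not pair the libraries (correlations of deviations -0.078, 0.016 and -0.013); the replicate block called 4461 genes in tumours and 7343 in cultures, with the same 5 higher, and 1 higher and 6 lower, of the 10. Upper-quartile factors moved the median of all culture genes by -0.11. In the interaction library totals moved higher calls to 39.7% of calls, against 53.7%.

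Directions turned in these cases. With the trend removed, the culture log2 fold changes were 0.24 for Hmox1 (0.24 with the block, 0.13 with shortest principal transcripts), -0.089 for Gclc (-0.088, -0.25), 0.042 for Srxn1 (0.042 with the block), 0.052 for Gsr (0.052 with the block), -0.15 for Gsk3b (-0.15, -0.22), 0.00068 for Urod (0.0012 with the block) and 0.076 for Pcbp1 (0.068 with the block). With shortest principal transcripts they were 0.33 for Gclm, -0.086 for Cul3 and -0.074 for Abcc1, and the interaction of Gclm was -0.067. With upper-quartile factors culture Gclc was -0.090 and tumour Gsr -0.00022; with all 8 libraries in 1 fit culture Gclc was -0.056. With library totals tumour Gsr was -0.028, culture Gsr 0.0043, and the interactions of Gclc and Gsr -0.13 and -0.033. With no filter tumour Gsr was -0.0070 and the interaction of Gclc -0.078, which was -0.00093 with DESeq2; that of Gsr was -0.00097 with the trend removed and -0.0011 with the block as well. Leaving out 1 library gave -0.084 to 0.050 for Gclc, -0.054 to 0.063 for Gsr and -0.11 to 0.059 for Osgin1 in tumours, -0.035 to 0.086 for Gclc and -0.12 to 0.020 for Gsr in cultures, and -0.030 to 0.10 for the interaction of Gclc. Apart from Gclm and Hmox1 in cultures, no gene that was called as tested and is among the 10 turned direction in tumours or cultures. Where no construction of the setting shows it, the cause was not tested. Depth limits Osgin1 most, at 73 counts in its smallest library.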
